A study of Homo sapiens with 16 samples.

Results

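The 10 genes described here encode the receptors, ligands and inhibitors of the epidermal growth factor (EGF) system. They are the receptors EGFR, ERBB2 and ERBB3, the ligands AREG, EREG, TGFA, HBEGF and BTC, and the inhibitors LRIG1 and ERRFI1. The genes were chosen by symbol. All 10 were found by symbol among the 54127 Ensembl identifiers of the count files, and all 10 passed the filter on low counts in both lines. AREG and BTC in HT55, and BTC in SW948, reached 10 counts in every DMSO library but not in every itraconazole library, so they entered the test through the group where they were high.

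RNA was sequenced from 2 established lines of human colorectal cancer, HT55 and SW948, to ask how itraconazole, an azole antifungal drug, acts in such cells. Each line was grown adherent with foetal bovine serum and received itraconazole at 5 µM or the solvent, DMSO, with RNA taken at day 6. There were 4 libraries in each of the 4 groups, 16 in all, and each line stood for 1 tumour. The study's methods describe the replicates as biological. Gene counts per library ran from 8269406 to 11110814. Markers of colorectal epithelium were detected in every library (10 of 10 genes, summed level 6670 to 12000 counts per 1000000 gene counts), while COL3A1 of fibroblasts, KDR of endothelium and CD3E of T cells were at 0 in all 16. The epithelial markers did not all stay level. With itraconazole in SW948, 5 of the 10 passed as higher and 5 as lower (edgeR), with KRT19 at log2 1.34 and CDX2 at -0.88. Of all genes tested there, 38.9% were higher and 41.3% lower. In HT55 5 were higher, CDX2 among them at 0.43, and 1 lower, against 27.5% and 26.5% of all genes. Markers of other cell types were not all low or unchanged. CD68, a marker of macrophages, went in SW948 from 20.5 to 110 counts per 1000000 (log2 2.39, adjusted p = 2.02e-10, edgeR) and in HT55 from 30.4 to 46.1 (0.59, adjusted p = 0.0868). The summed level of the 6 blood cell markers was 15.5 to 23.5 with DMSO and 109 to 112 with itraconazole in SW948, and 27.9 to 32.6 and 21.2 to 61.6 in HT55. That of the 6 fibroblast markers was 2.54 to 4.68 and 9.94 to 12.1 in SW948, where COL1A1 rose (1.65, adjusted p = 9.01e-07), and 1.41 to 2.13 and 3.33 to 3.97 in HT55, where PDGFRB rose (1.25, adjusted p = 0.00216). PDGFRB was low in HT55, at 1.04 counts per 1000000 with DMSO and 2.49 with itraconazole, and had at most 25 counts in a library. The 3 endothelial markers had at most 5 counts in a library. The part of these markers in the results was not tested. These are bulk samples, in which fewer cells with a transcript and less of it per cell cannot be told apart.

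EGFR, ERBB2 and ERBB3 are receptor tyrosine kinases at the cell surface. A ligand opens the receptor and lets it pair with another member of the family, ERBB2 has no ligand of its own and serves as the preferred partner, and ERBB3 signals mainly through its partner's kinase. The ligands are made as membrane precursors and are cut free by proteases. Each acts through EGFR, and HBEGF, EREG and BTC can also engage other receptors of the family. In the intestine these ligands sustain growth of the epithelium, LRIG1 marks stem cells and restrains the receptors, and AREG and EREG levels in colorectal tumours are known for their relation to the response to antibodies against EGFR.

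The members are protein-coding genes spread over 8 chromosomes of GRCh37. EGFR lies at chr7:55086710-55279321, ERBB2 at chr17:37844167-37886679 and ERBB3 at chr12:56470583-56497289, all on the plus strand. TGFA lies at chr2:70674416-70781325, HBEGF at chr5:139712428-139726188, LRIG1 at chr3:66429221-66551687 and ERRFI1 at chr1:8064464-8086369, all on the minus strand. The ligand genes EREG, AREG and BTC lie together on chromosome 4 of GRCh37, at chr4:75230862-75254466 (plus strand), chr4:75310853-75320722 (plus strand) and chr4:75669969-75719733 (minus strand). The gap from EREG to AREG was 56.4 kb and that from AREG to BTC was 349.2 kb. In this build the chromosome also holds AREGB, a near-identical copy of AREG, and that copy decides how AREG can be counted. Compared base by base, the 6 exons of AREG differed from those of AREGB at 1 base, G240A, counted from 1 at the 5′ end of exon 1 with the AREG base first. The bases around it are shown from the plus strand of GRCh37 with the differing base in capitals, for AREG at chr4:75311078-75311106 and for AREGB at chr4:75480854-75480882.
AREG: ctaccgccggcgccGgtggtgctgtcgct
AREGB: ctaccgccggcgccAgtggtgctgtcgct
Of the 940 stretches of 50 bases within AREG exons, 50 being the read length, 32 (3.4%) occurred once in the genome, and all 32 lay in exon 1. On the spliced transcript 50 of 1185 possible read starts (4.2%) covered the differing base. A read from anywhere else in AREG aligned equally well to AREGB, and reads with more than one alignment were not counted in any gene. AREGB itself had at most 1 count in a library and was at 0 in 15 of 16. By this rule only reads over a short stretch of exon 1 can reach the deposited AREG count, which lowers its level against other genes. Of the other members, EREG had 97.8% of its 50-base stretches once in the genome, and the remaining 8 had at least 99.9%.

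**Figure D1:**
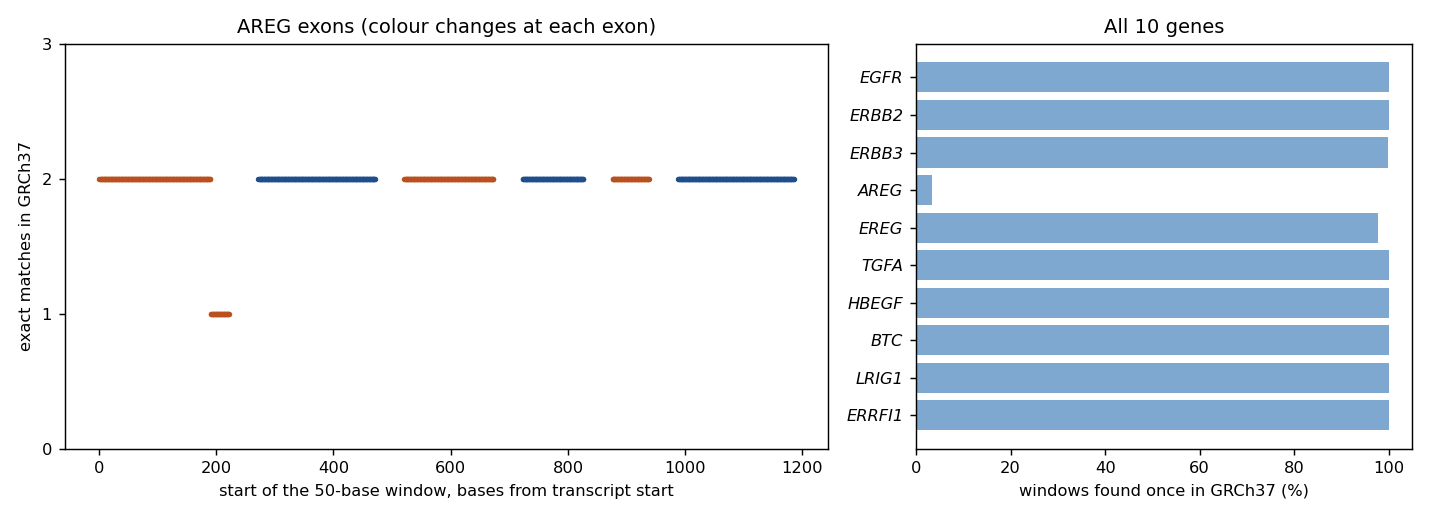
Left, exact matches in GRCh37 (y axis) of each 50-base stretch within the 6 exons of AREG, by its start in bases from the transcript start (x axis), with colours changing at each exon; a short run of 32 stretches in exon 1 has 1 match and all others have 2. Right, percent of such stretches found once in the genome for each of the 10 genes, with AREG at 3.4% and the others at 97.8% or more.

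In SW948 BTC fell with itraconazole, AREG rose and EREG did not pass the test, so the 200 bases before the start site of each of these neighbours are shown, from RefSeq on GRCh38.p14 and in the direction of transcription. EREG is at chr4:74364945-74365144 (plus strand), AREG at chr4:74444936-74445135 (plus strand) and BTC at chr4:74794524-74794723 (minus strand). Capitals mark matches, on either strand, to the motifs searched. These were TGANTCA for AP-1 factors, the E-box letters CACGTG, the Sp1 letters GGGCGG, the TATA box letters TATAAA, the letters TGACGTC as the start of a cAMP response element, and the ETS letters GGAAGT.
EREG: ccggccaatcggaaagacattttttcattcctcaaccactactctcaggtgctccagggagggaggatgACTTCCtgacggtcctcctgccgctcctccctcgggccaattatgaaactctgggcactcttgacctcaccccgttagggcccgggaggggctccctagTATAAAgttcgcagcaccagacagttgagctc
AREG: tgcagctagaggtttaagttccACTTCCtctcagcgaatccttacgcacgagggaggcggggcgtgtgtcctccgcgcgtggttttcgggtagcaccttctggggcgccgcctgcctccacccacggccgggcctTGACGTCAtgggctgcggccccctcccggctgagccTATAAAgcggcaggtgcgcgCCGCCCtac
BTC: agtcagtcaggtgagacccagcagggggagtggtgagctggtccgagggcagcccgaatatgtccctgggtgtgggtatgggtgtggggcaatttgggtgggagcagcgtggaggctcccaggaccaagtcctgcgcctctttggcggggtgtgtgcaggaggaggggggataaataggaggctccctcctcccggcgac
EREG and AREG each held a TATA match, starting 32 and 29 bases before the start site, and an ETS match, starting 131 and 178 bases before it. AREG also held the response element start in both directions, starting 65 and 64 bases before the start site and overlapping each other, and a Sp1 match 9 bases before it. BTC held none of these letters in the 200 bases. Among all 35116 RefSeq promoters, each taken as 250 bases before to 50 after the start, 11.5% held the TATA letters, 3.4% the response element start, 22.8% the ETS letters and 45.0% the Sp1 letters. AP-1 and E-box letters stood in 7.7% and 7.3%. In that longer window BTC held a Sp1 match, starting at base 23 after the start site. Promoters were matched for 9 of the 10 members (14 promoters), all but ERBB3. A match describes the letters and is no evidence that a factor was bound.

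EGFR, the receptor that these ligands share, rose in HT55. Levels are given as counts per 1000000 gene counts (CPM), scaled with trimmed mean of M values (TMM) factors over the 16 libraries, and changes as log2 differences of itraconazole against DMSO with the standard error (SE) from edgeR. EGFR in HT55 was at 125, 111, 98.5 and 111 CPM with DMSO and at 236, 245, 222 and 304 CPM with itraconazole. Every treated library lay above every control library, and the rise was 2.25-fold, a log2 change of 1.17 ± 0.11 (SE, adjusted p = 1.8e-05). That change ranked 11634 of 12133 genes tested in HT55, counted from the lowest. In SW948 EGFR was at 164, 184, 175 and 186 CPM with DMSO and at 210, 234, 228 and 206 CPM with itraconazole. The groups were apart here too, but the change was smaller, at 0.28 ± 0.067 (adjusted p = 0.00184), and on plain library totals it turned to -0.058 (adjusted p = 0.378), so its direction in SW948 depended on the scaling.

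The scaling of the libraries moved all genes together. Against TMM scaling, plain totals moved the median log2 change of all genes from -0.015 to -0.181 in HT55 and from -0.025 to -0.354 in SW948. The share of gene counts from mitochondrial genes also differed, from 2.11% to 2.19% with DMSO and 2.65% to 3.06% with itraconazole in HT55, and from 1.06% to 1.48% and 2.05% to 2.97% in SW948. The part of this in the results was not tested. Once the mitochondrial genes and the 20 genes of highest count were left out, 7 members were called in HT55 and 8 in SW948, as with all genes.

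ERBB2, the partner receptor without a ligand, went opposite ways in the lines. In HT55 it was at 330, 302, 327 and 311 CPM with DMSO and at 399, 404, 426 and 414 CPM with itraconazole. The treated libraries were all higher, by 0.37 ± 0.059 (SE, adjusted p = 0.000527). In SW948 it was at 165, 167, 190 and 172 CPM with DMSO and at 146, 116, 115 and 120 CPM with itraconazole. There the treated libraries were all lower, with replicate 1 nearest to the controls, and the log2 change was -0.51 ± 0.08 (adjusted p = 4.12e-05). Both directions held on plain totals, at 0.20 and -0.84. The counts do not state whether strand was used, and ERBB2 shares 3.58% of its exon bases with MIEN1 on the opposite strand, which had up to 623 counts.

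ERBB3 had the highest CPM of the 10 genes in 3 of the 4 groups. In HT55 it was at 743, 688, 720 and 716 CPM with DMSO and at 692, 622, 620 and 600 CPM with itraconazole. Treated replicate 1 lay among the controls, so the groups overlapped, and the log2 change of -0.18 ± 0.065 (SE) passed narrowly (adjusted p = 0.0344). On plain totals the change was -0.35 (adjusted p = 0.00112). The groups were then apart, at 709 to 760 CPM with DMSO and 540 to 623 CPM with itraconazole, so the overlap depended on the scaling. With TMM scaling the change no longer passed with the replicate block (adjusted p = 0.0643), with 1 fit on all 16 libraries (adjusted p = 0.142) or with no filter on low counts (adjusted p = 0.0637). Leaving out 1 library ended the call in 6 of 8 cases: HT55 DMSO replicates 1 (adjusted p = 0.132), 2 (0.0686), 3 (0.103) and 4 (0.102), and HT55 itraconazole replicates 2 (0.0584) and 4 (0.0887). In SW948 ERBB3 was at 385, 386, 367 and 397 CPM with DMSO and at 337, 232, 216 and 285 CPM with itraconazole. The groups were apart, the treated libraries spread widely, and the change was -0.55 ± 0.11 (adjusted p = 0.000389).

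**Figure D2:**
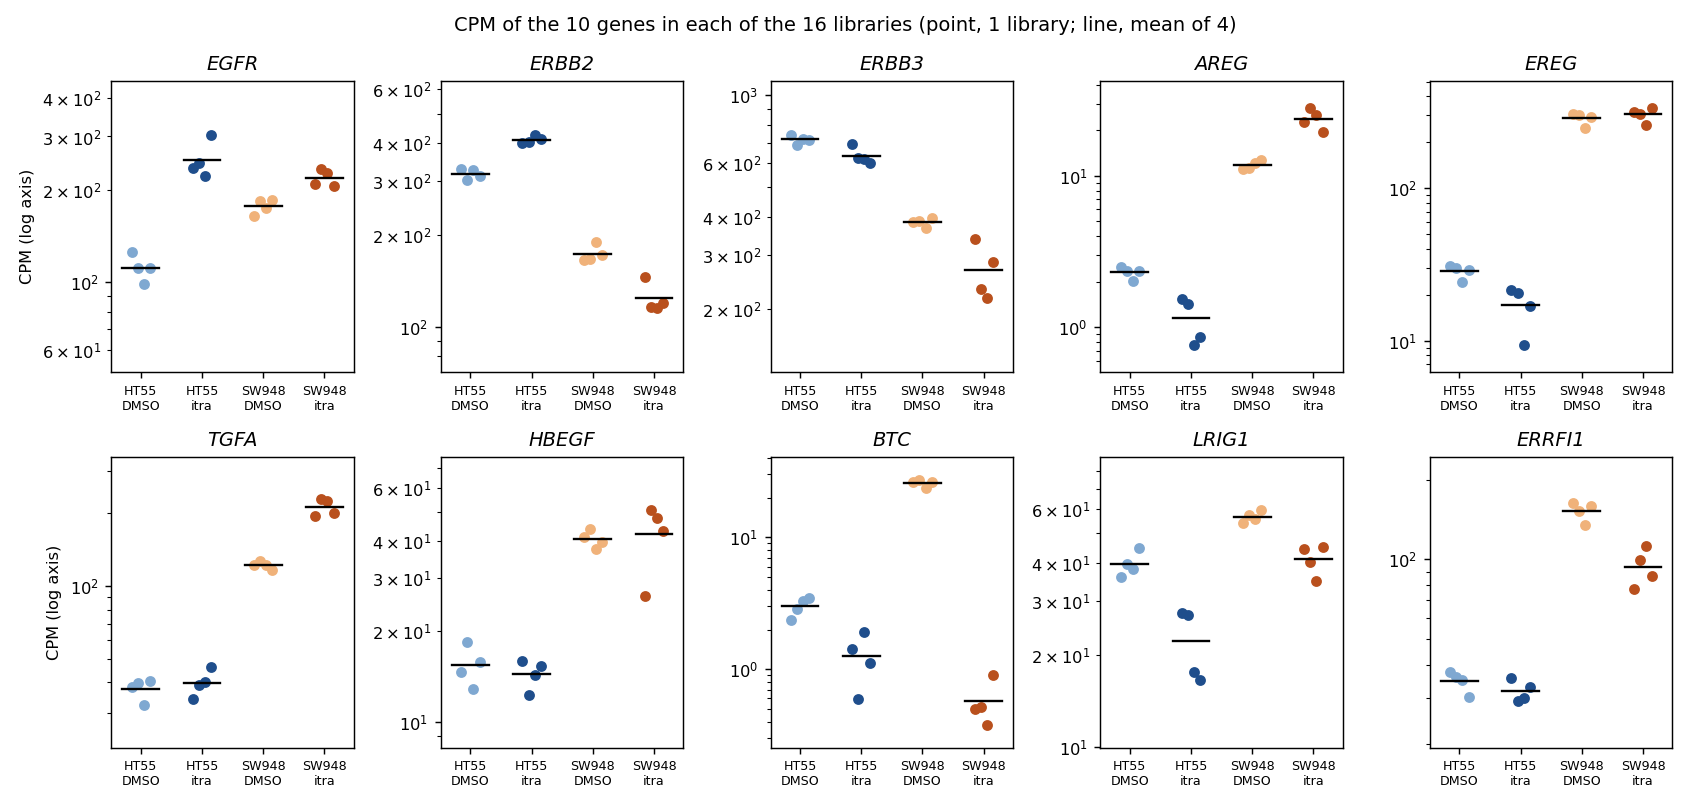
CPM (y axis, log, with a range of its own in each panel) of the 10 genes in each of the 16 libraries, by line and treatment (x axis; itra, itraconazole); each point is 1 library and each line the mean of 4. EGFR rises in HT55 with no overlap, BTC in SW948 falls from 25.7 to 0.575 CPM, and the 5 ligands drawn sit higher in SW948 DMSO than in HT55 DMSO.

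Among the ligands, BTC (betacellulin) showed the widest change of the 10 genes. In SW948 it had 326, 288, 271 and 339 counts with DMSO and 5, 4, 3 and 8 counts with itraconazole. As levels these were 26.1, 27.2, 23.5 and 26.1 CPM against 0.5, 0.515, 0.381 and 0.903 CPM. The lowest control was far above the highest treated library, and the fall was 44.5-fold, a log2 change of -5.48 ± 0.18 (SE, adjusted p = 2.66e-11), rank 11 from the lowest among the 12505 genes tested in SW948. In HT55, where BTC was low from the start, it had 22, 28, 31 and 29 counts with DMSO and 12, 5, 20 and 9 with itraconazole. Those groups were also apart, by -1.21 ± 0.30 (adjusted p = 0.00604). With at most 31 counts in a library, counting error is a large part of the HT55 value. BTC entered the test in both lines through the DMSO group, where it was high.

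AREG (amphiregulin), counted over its short unique stretch, fell in HT55 and rose in SW948. In HT55 it had 23, 23, 19 and 20 counts with DMSO and 13, 12, 8 and 7 with itraconazole. All 4 treated libraries were lower, at a log2 change of -1.02 ± 0.26 (SE, adjusted p = 0.00766). AREG entered this HT55 test through the DMSO group, where it was high. In SW948 it had 138, 120, 140 and 165 counts with DMSO and 227, 219, 200 and 172 with itraconazole, or 11.1, 11.3, 12.1 and 12.7 CPM against 22.7, 28.2, 25.4 and 19.4 CPM. All 4 treated libraries were higher, by 0.98 ± 0.12 (adjusted p = 3.66e-06), and on plain totals by 0.65 (adjusted p = 0.000168). The share of reads set apart for more than one alignment, to which most AREG reads belong, was 22.0% to 23.6% in SW948 with DMSO and 25.3% to 26.2% with itraconazole, and 26.3% to 27.1% and 24.1% to 27.9% in HT55. Its part in the AREG values was not tested.

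EREG (epiregulin), the neighbour of AREG, was the ligand with most counts in SW948. There it was at 305, 300, 249 and 292 CPM with DMSO and at 314, 306, 261 and 336 CPM with itraconazole. The groups overlapped and the change of 0.055 ± 0.085 (SE) did not pass (adjusted p = 0.561), whereas on plain totals it was -0.27 (adjusted p = 0.0163). In HT55 EREG was at 30.6, 29.9, 24.1 and 29.0 CPM with DMSO and at 21.6, 20.6, 9.32 and 16.9 CPM with itraconazole. All 4 treated libraries were lower, at a log2 change of -0.75 ± 0.21 (adjusted p = 0.0129), with replicate 3 lowest. Without that replicate the fall was -0.52, and the call remained.

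TGFA (transforming growth factor alpha) rose in SW948, from 122, 127, 122 and 117 CPM with DMSO to 195, 229, 226 and 200 CPM with itraconazole. No treated library reached down to the controls, and the log2 change was 0.77 ± 0.069 (SE, adjusted p = 1.63e-07), or 0.43 on plain totals (adjusted p = 8.69e-06). In HT55 it was at 38.3, 39.6, 32.2 and 40.5 CPM with DMSO and at 34.3, 39.0, 40.1 and 46.3 CPM with itraconazole. The groups overlapped and no change passed (0.081 ± 0.11, adjusted p = 0.542, and -0.084 on plain totals).

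HBEGF (heparin-binding EGF-like growth factor) did not pass in either line. In HT55 it was at 14.6, 18.4, 12.9 and 15.8 CPM with DMSO and at 15.9, 12.3, 14.3 and 15.3 CPM with itraconazole (-0.10 ± 0.13, SE, adjusted p = 0.536). In SW948 it was at 41.3, 43.9, 37.6 and 39.8 CPM with DMSO and at 26.3, 50.8, 47.8 and 43.2 CPM with itraconazole. Treated replicate 1 was below all controls and treated replicates 2 and 3 were above all controls, so the SW948 value of 0.0073 ± 0.15 (adjusted p = 0.967) rests on that library. Without it the change was 0.20 ± 0.081 (adjusted p = 0.0339), and with all libraries on plain totals it was -0.33 (adjusted p = 0.0422), so its direction depended on the scaling and on 1 library.

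The inhibitors were lower with itraconazole where they changed. LRIG1, which binds the receptors and promotes their degradation, was at 36.0, 39.6, 38.2 and 44.8 CPM in HT55 with DMSO and at 27.5, 27.1, 17.6 and 16.5 CPM with itraconazole. In SW948 it was at 54.3, 57.6, 55.9 and 59.5 CPM with DMSO and at 44.5, 40.2, 35.0 and 45.2 CPM with itraconazole. Both pairs of groups were apart, with log2 changes of -0.84 ± 0.17 (SE, adjusted p = 0.0017) in HT55 and -0.49 ± 0.083 (adjusted p = 7.91e-05) in SW948. LRIG1 shares 49.8% of its exon bases with SLC25A26 on the opposite strand, which had up to 371 counts. Without strand, reads of the shared stretch cannot be told apart, and whether the counting used strand is not given in the sources used here.

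ERRFI1 (also called MIG6), a cytosolic protein that binds and blocks the EGFR kinase, was at 163, 153, 135 and 159 CPM in SW948 with DMSO and at 77.6, 99.5, 112 and 86.6 CPM with itraconazole. The groups were apart and the log2 change was -0.74 ± 0.10 (SE, adjusted p = 1.43e-05). In HT55 it was at 37.4, 35.9, 35.0 and 30.3 CPM with DMSO and at 35.7, 29.1, 29.8 and 33.0 CPM with itraconazole. These overlapped, at -0.12 ± 0.095 (adjusted p = 0.289), and the value passed only on plain totals, at -0.29 (adjusted p = 0.0286).

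**Figure D3:**
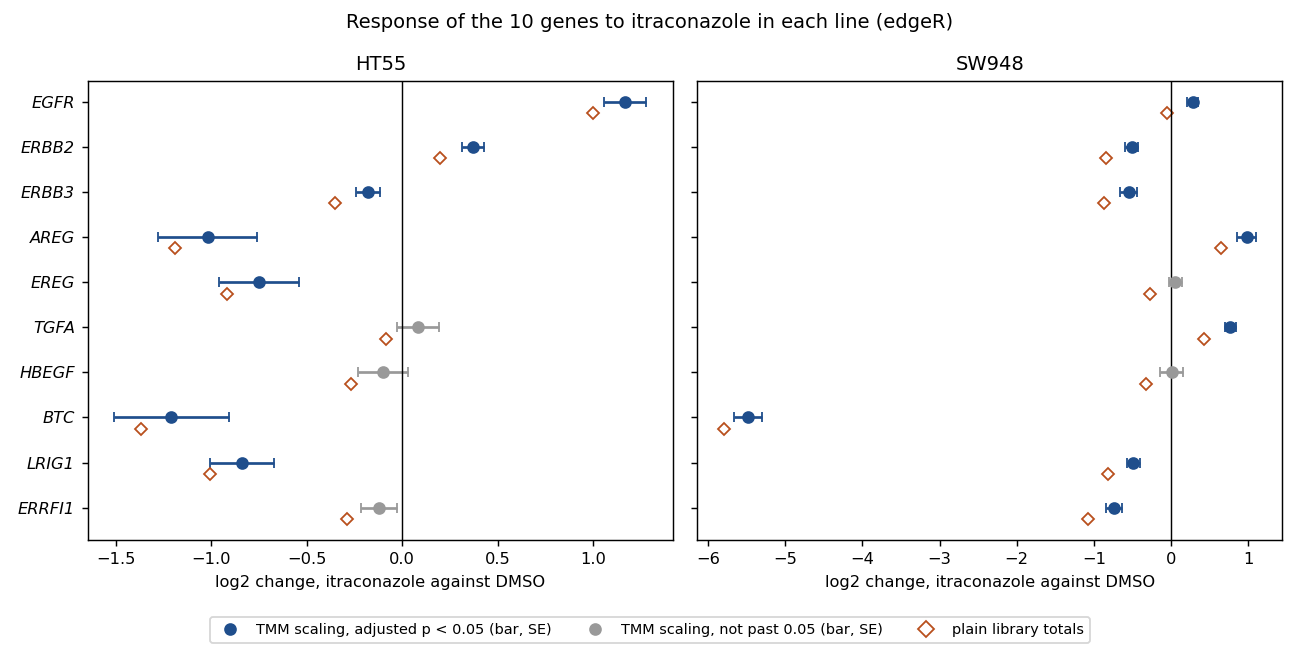
Log2 change with itraconazole against DMSO (x axis, with a separate range for each line) of the 10 genes in HT55 (left) and SW948 (right). Filled points are the TMM-scaled edgeR values with their SE, blue where the adjusted p was under 0.05 and grey where it was not, and open diamonds are the values on plain library totals, which lie lower for every gene and change sign for TGFA in HT55 and for EGFR, EREG and HBEGF in SW948.

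In counts, 7 of the 10 genes passed in HT55 (2 higher and 5 lower), against 54.0% of all 12133 genes tested (57.6% on plain totals). In SW948, 8 of 10 passed (3 higher and 5 lower), against 80.2% of 12505 genes (79.8% on plain totals), so the share of members called was near that of all genes in this line. Over all genes the called share was 27.5% higher and 26.5% lower in HT55 and 38.9% higher and 41.3% lower in SW948. On plain totals these shares became 18.8% higher and 38.8% lower in HT55 and 25.1% higher and 54.6% lower in SW948, and the members called became 8 in HT55 (2 higher and 6 lower) and 9 in SW948 (2 higher and 7 lower). Among the lower calls, AREG and BTC in HT55 and BTC in SW948 had entered the test through the DMSO group, where they were high. With at least 10 counts in every library these were not tested. Then 5 members were called in HT55 (2 higher and 3 lower) and 7 in SW948 (3 higher and 4 lower), among 6156 and 8820 genes called. The treated and control libraries did not overlap for 6 members in HT55 and 8 in SW948, against 49.4% and 74.7% of the genes tested. The median log2 change of the members was -0.15 in HT55 and -0.24 in SW948, beside -0.015 and -0.025 over all genes.

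Whether the lines differed in their response was tested as the interaction of line and treatment on all 16 libraries, given as the SW948 change minus the HT55 change. It passed for 8 of 10 members (3 positive and 5 negative), against 53.9% of the 13249 genes tested, of which 24.8% were positive and 29.1% negative. On plain totals it also passed for 8 members (3 and 5), and for 54.5% of genes (17.3% positive and 37.2% negative). With at least 10 counts in every library it passed for 6 members (2 positive and 4 negative), as AREG and BTC were then not tested. AREG differed by 2.04 ± 0.28 (SE, adjusted p = 6.62e-06), and its groups moved in opposite directions. So did those of ERBB2, at -0.85 ± 0.10 (adjusted p = 1.93e-06). BTC differed by -4.24 ± 0.39 (adjusted p = 7.71e-08), falling in both lines but further in SW948. EGFR differed by -0.87 ± 0.13 (adjusted p = 1.55e-05). TGFA and EREG were positive, at 0.72 ± 0.12 (adjusted p = 8.65e-05) and 0.84 ± 0.22 (adjusted p = 0.00352), and ERRFI1 was negative, at -0.58 ± 0.15 (adjusted p = 0.00277).

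The interaction of ERBB3 was at the limit, at -0.34 ± 0.14 (SE, adjusted p = 0.0491). It was lost on leaving out any 1 of 11 libraries, namely all 8 DMSO libraries (adjusted p from 0.0522 without SW948 replicate 3 to 0.0876 without HT55 replicate 2), HT55 itraconazole replicate 1 (0.0857) and SW948 itraconazole replicates 2 (0.11) and 3 (0.103). LRIG1 did not pass, at 0.38 ± 0.19 (adjusted p = 0.0954), but did without HT55 itraconazole replicate 1 (0.49, adjusted p = 0.0306) or replicate 2 (0.49, adjusted p = 0.0261). HBEGF did not pass, at 0.14 ± 0.23 (adjusted p = 0.621), and was -0.064 on plain totals.

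The lines already differed with DMSO alone. All 10 members passed between SW948 and HT55 controls, against 84.2% of the 12820 genes tested (42.6% higher and 41.6% lower in SW948). The libraries of the lines did not overlap for any of the 10, as for 78.8% of the genes tested. On plain totals 10 members and 84.7% of genes passed (51.0% higher and 33.7% lower). The 5 ligands were all higher in SW948: EREG by 10.1-fold (log2 3.34 ± 0.070, SE, adjusted p = 6.84e-23), BTC by 8.61-fold, AREG by 5.12-fold, TGFA by 3.25-fold and HBEGF by 2.64-fold. The inhibitors ERRFI1 and LRIG1 were higher there too, by 4.41-fold and 1.44-fold, as was EGFR, by 1.59-fold. ERBB2 and ERBB3 were lower in SW948, with log2 differences of -0.87 ± 0.046 (adjusted p = 6.25e-15) and -0.90 ± 0.041 (adjusted p = 4.24e-16). These directions held on plain totals, where EREG was at 3.53 and ERBB2 at -0.68. The comparison shares its control libraries with the treatment comparisons above. The median log2 difference of the members was 1.55 and that of all genes 0.012.

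To set the genes against each other, CPM was divided by the number of positions where a 50-base read can start on the canonical transcript, and given per 1000 such positions. In HT55 with DMSO, ERBB3 led the receptors at 129 ± 4.01 (SD, n = 4), with ERBB2 at 70.5 ± 3.0 and EGFR at 11.3 ± 1.09. Itraconazole left that order in place, with EGFR at 25.5 ± 3.68. EGFR thus made up 5.37% ± 0.461 of the summed receptor level with DMSO and 11.1% ± 1.62 with itraconazole, and in SW948 14.3% ± 0.619 and 23.1% ± 3.83. In SW948 the receptors kept the same order, with ERBB3 at 69.0 ± 2.18, ERBB2 at 38.5 ± 2.48 and EGFR at 18.0 ± 1.04 with DMSO, and at 48.1 ± 9.91, 27.6 ± 3.21 and 22.3 ± 1.42 with itraconazole.

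Of the ligands on this length scale, leaving out AREG, TGFA led in HT55 with DMSO at 9.26 ± 0.918 (SD, n = 4), followed by HBEGF at 6.68 ± 0.996, EREG at 6.22 ± 0.65 and BTC at 1.15 ± 0.182. The libraries of HBEGF overlapped those of both TGFA and EREG. In SW948 with DMSO, EREG led at 62.7 ± 5.54 and made up 52.1% ± 1.77 of the ligand sum, followed by TGFA at 30.0 ± 0.995, HBEGF at 17.6 ± 1.13 and BTC at 9.88 ± 0.606. With itraconazole in SW948, TGFA made up 38.1% ± 2.9 of that sum, from 25.0% ± 1.55 with DMSO, and BTC 0.16% ± 0.0588, from 8.23% ± 0.132. The sum itself, without AREG, was 120 ± 7.36 with DMSO and 137 ± 7.83 with itraconazole in SW948, and 23.3 ± 2.32 and 20.3 ± 1.42 in HT55.

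AREG was placed on the same scale with its 50 informative read starts in place of 1185. It then stood at 46.2 ± 4.09 (SD, n = 4) in HT55 with DMSO, 22.9 ± 7.79 in HT55 with itraconazole, 236 ± 15 in SW948 with DMSO and 479 ± 75.3 in SW948 with itraconazole. On all 1185 starts the same counts gave 1.95 ± 0.173, 0.968 ± 0.329, 9.97 ± 0.633 and 20.2 ± 3.18. With 50 starts AREG was the highest ligand in each group, and with 1185 starts EREG, TGFA and HBEGF were above it in both DMSO groups. The ligand sum with AREG on 50 starts was 356 ± 12.1 with DMSO and 616 ± 77.5 with itraconazole in SW948, and 69.5 ± 6.12 and 43.2 ± 7.93 in HT55. EREG then made up 17.6% ± 1.69 of it in SW948 with DMSO. The form with 50 starts assumes that the counted reads were those that cover the differing base, which the counts cannot show.

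**Figure D4:**
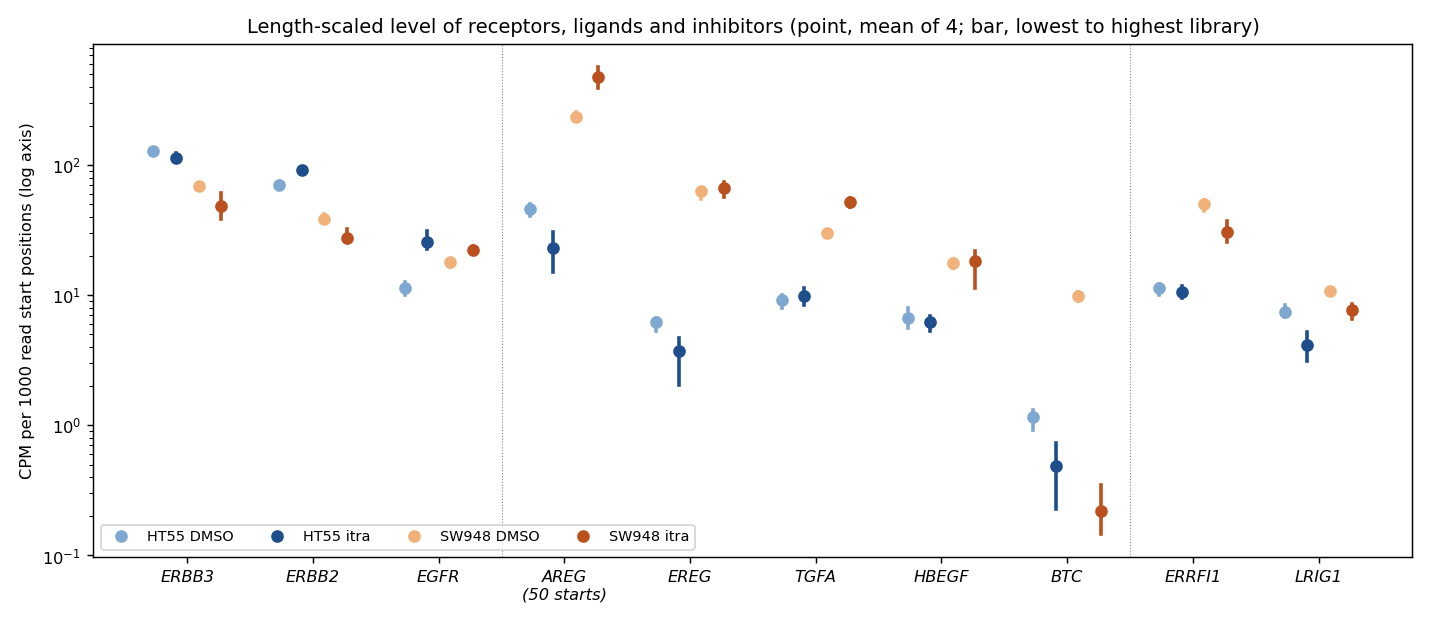
CPM per 1000 read start positions (y axis, log) of the receptors, ligands and inhibitors (x axis, parted by dotted lines) in the 4 groups (itra, itraconazole); points are means of 4 libraries and bars run from the lowest to the highest library. ERBB3 is the highest receptor in every group, and AREG is drawn on its 50 informative starts, at 46.2 in HT55 DMSO and 236 in SW948 DMSO.

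Across all 10 genes, with AREG on its 50 starts, the order in HT55 with DMSO was ERBB3, ERBB2, AREG, ERRFI1, EGFR, TGFA, LRIG1, HBEGF, EREG and BTC. Neighbours that overlapped were ERRFI1 with EGFR, TGFA with LRIG1, LRIG1 with HBEGF, and HBEGF with EREG. In SW948 with DMSO the order was AREG, ERBB3, EREG, ERRFI1, ERBB2, TGFA, EGFR, HBEGF, LRIG1 and BTC, with overlaps of ERBB3 with EREG, EGFR with HBEGF, and LRIG1 with BTC. In SW948 with itraconazole the order was AREG, EREG, TGFA, ERBB3, ERRFI1, ERBB2, EGFR, HBEGF, LRIG1 and BTC, where TGFA overlapped ERBB3, ERRFI1 overlapped ERBB2 and EGFR overlapped HBEGF. BTC was last in every group, 35.1-fold below LRIG1 in SW948 with itraconazole. LRIG1 was placed on all its read starts, although it shares 49.8% of its exon bases with SLC25A26. The part of this in its place was not tested.

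Genes with a pattern most like that of a member were found by Pearson's r of log2 CPM over the 16 libraries. These points share line and treatment, so r is a description. For EGFR they were SHROOM3 (0.968), PFKFB2 (0.956) and ENPP1 (0.95), and for LRIG1 they were MNX1 (0.965), ARSL (0.963) and LANCL1 (0.953). ERBB2 was most like CELSR2 (0.997), VANGL1 (0.994) and SMAD6 (0.992), and ERBB3 most like MYORG (0.993), TSR1 (0.992) and BRI3BP (0.991). EREG was most like THADA (0.998), MAP4K4 (0.995) and GRB10 (0.994).

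Other receptors and ligands of the family were nearly absent, with 1 exception. ERBB4, EPGN and NRG1 to NRG4 had at most 2 counts in a library, EPGN and NRG3 were at 0 in all 16, and none of these 6 could be tested. EGF, the ligand that gives the family its name, rose in both lines. It was at 2.23 ± 0.796 CPM (SD, n = 4) with DMSO and 19.3 ± 6.1 CPM with itraconazole in HT55, a log2 change of 3.10 ± 0.30 (SE, adjusted p = 3e-05). In SW948 it was lower, at 0.597 ± 0.263 and 2.21 ± 0.357 CPM, a change of 1.82 ± 0.29 (adjusted p = 5.58e-05). With DMSO its mean there was too low for the filter, so EGF entered the SW948 test through the treated group, where it was high. The treated libraries were above the controls in both lines. The interaction of line and treatment did not pass for EGF (-1.25 ± 0.53, adjusted p = 0.0531), while on plain totals it did (-1.43, adjusted p = 0.0229). Between the DMSO groups EGF was lower in SW948 than in HT55, at -1.85 ± 0.32 (SE, adjusted p = 1.22e-05, edgeR), opposite to the 5 member ligands.

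The counts of the pathway lists that follow stand against 27.5% of all genes called higher and 26.5% lower in HT55, and 38.9% higher and 41.3% lower in SW948. Of the genes that cut or carry the ligand precursors, 8 of 10 were tested in HT55 (2 rose and 1 fell) and 9 in SW948 (4 rose and 4 fell, or 2 and 4 on plain totals). ADAM10, a sheddase that cuts EGF and BTC precursors, rose in HT55 from 244 to 375 CPM (0.62, adjusted p = 0.000166). Its SW948 change of 0.39 (adjusted p = 4e-05) dropped to 0.058 (adjusted p = 0.377) on plain totals. RHBDF1, an iRhom that carries the sheddase ADAM17, rose in both lines, by 0.41 in HT55 (adjusted p = 0.0014) and 0.78 in SW948 (adjusted p = 4.42e-06). FRMD8, which stabilises that complex, fell in SW948 from 56.3 to 40.7 CPM (-0.50, adjusted p = 0.000208). CNIH4, a cargo receptor of the secretory route, was lower in both, at -0.24 (adjusted p = 0.0271) in HT55 and -0.61 (adjusted p = 1.06e-06) in SW948. ADAM17, the main sheddase of AREG, EREG, TGFA and HBEGF precursors, was at 59.6 and 66.1 CPM in HT55 and at 83.5 and 94.8 CPM in SW948, with overlapping libraries in both. Its SW948 change of 0.15 (adjusted p = 0.0499) was -0.18 on plain totals, and its HT55 change did not pass (adjusted p = 0.0835).

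All 13 adaptors and enzymes that act at the receptor were tested. In HT55 8 rose and 2 fell (7 and 3 on plain totals), with a median log2 change of 0.46, beside -0.015 over all genes. In SW948 8 rose and 4 fell, but on plain totals 4 rose and 5 fell, with the median going from 0.20 to -0.13. GAB2, a docking protein, rose in SW948 from 38.3 ± 0.363 to 207 ± 34.2 CPM (2.40 ± 0.11, SE, adjusted p = 2.09e-10) and was at 1.8 and 2.78 CPM in HT55, where the change did not pass (adjusted p = 0.129). GAB1, its relative, rose in both lines, by 0.66 (adjusted p = 0.00127) and 1.05 (adjusted p = 1.39e-07). PTPN11, the phosphatase SHP2, rose in SW948 from 381 to 654 CPM (0.75, adjusted p = 8.08e-08). PIK3R3, a regulatory subunit of PI3-kinase, went opposite ways, at 0.81 in HT55 (adjusted p = 0.00026) and -0.76 in SW948 (adjusted p = 0.000715), with an interaction of -1.54 ± 0.20.

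Of the 11 genes from RAS to ERK, 5 were called higher and 3 lower in HT55 (3 and 3 on plain totals), and 8 higher and 1 lower in SW948 (7 and 2). The interaction passed for 8 of the 11, all positive (4 of 11 on plain totals, all positive). Over the 13249 genes tested it passed for 24.8% as positive and 29.1% as negative (17.3% and 37.2% on plain totals). Over all genes 27.5% were called higher in HT55 and 38.9% in SW948. HRAS rose in SW948 from 29.1 ± 1.3 to 70.1 ± 21.7 CPM (1.23, adjusted p = 1.25e-05) and was at 14.9 and 13.6 CPM in HT55. The MEK genes rose in both lines, MAP2K1 from 67.3 to 100 CPM in HT55 and from 68.2 to 137 CPM in SW948, and MAP2K2 from 178 to 224 CPM and from 140 to 242 CPM. BRAF rose by 0.63 in HT55 (adjusted p = 0.00423) and 0.98 in SW948 (adjusted p = 2.71e-06). The directions of these 4 genes where they passed held on plain totals.

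Of 17 genes that degrade or restrain the receptors, 6 were called higher and 1 lower in HT55, and 8 higher and 3 lower in SW948. On plain totals the counts were 3 and 5 in HT55 and 6 and 8 in SW948, so the direction of the list depended on the scaling. CBL, the ubiquitin ligase of EGFR, rose in both, from 50.9 to 76.6 CPM in HT55 (0.58, adjusted p = 0.000193) and from 110 to 206 CPM in SW948 (0.87, adjusted p = 4.74e-07). STAM, of the endosomal sorting machinery, rose in SW948 by 0.94 (adjusted p = 1.09e-08), as did PTPN2, a tyrosine phosphatase, by 0.78 (adjusted p = 3.17e-05). USP8, a deubiquitinase that acts on internalised receptors, fell in SW948 from 67.6 to 39.2 CPM (adjusted p = 1.29e-05). These 4 directions held on plain totals.

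Of the 15 early genes that growth factors induce, 12 were tested in HT55 (4 rose and 1 fell, or 4 and 3 on plain totals) and 14 in SW948 (11 rose and 1 fell, or 8 and 1 on plain totals). Of all genes, 54.0% were called in HT55 and 80.2% in SW948. The median log2 change was 0.34 in HT55 and 0.87 in SW948, and on plain totals 0.17 and 0.53. In SW948, PHLDA1 rose from 239 to 712 CPM (1.54, adjusted p = 8.02e-10), ATF3, a stress-responsive transcription factor, from 57.7 to 191 CPM (1.69, adjusted p = 9.12e-07), and FOSL1, an AP-1 subunit, from 25.8 to 75.4 CPM (1.51, adjusted p = 7.19e-07). FOSB, another AP-1 subunit, rose there from 0.94 to 9.09 CPM (3.21, adjusted p = 9.87e-09), and its DMSO level was near the limit of the filter. None of these 4 passed in HT55 with TMM scaling, and FOSB was below the filter there. On plain totals PHLDA1 (-0.38, adjusted p = 0.00926) and FOSL1 (-0.58, adjusted p = 0.0207) were called lower in HT55, while ATF3 did not pass (adjusted p = 0.442). EGR1 moved the other way and was lower in both lines, at -0.45 in HT55 (adjusted p = 0.00179) and -0.61 in SW948 (adjusted p = 0.0204), with overlapping libraries in SW948.

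**Figure D5:**
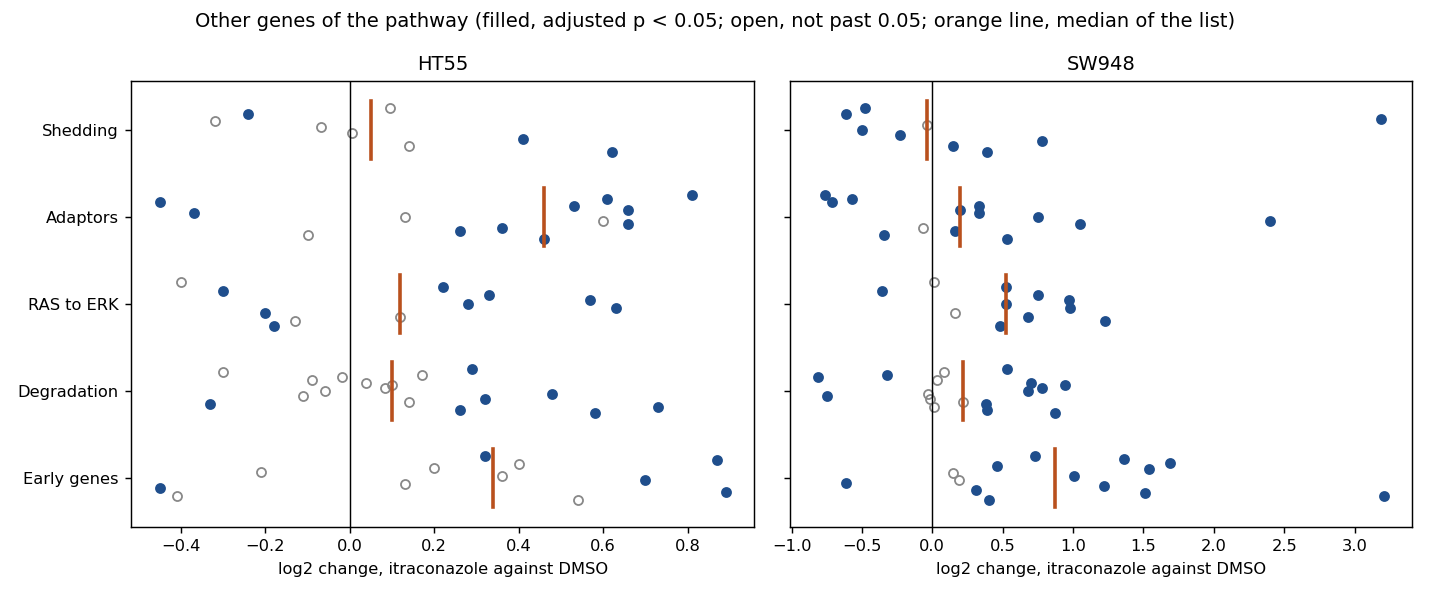
Log2 change with itraconazole against DMSO (x axis, TMM-scaled, with a separate range for each line) of the other pathway genes that were tested, by list (y axis), in HT55 (left) and SW948 (right). Filled points had an adjusted p under 0.05 and open points did not, and the orange line is the median of the list; early genes lie to the right in SW948 (median 0.87), while on plain totals the medians of the shedding list in HT55, the adaptors in SW948, RAS to ERK in HT55 and the degradation list in both lines are below 0.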

How the data were processed

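RNA from 16 libraries (HT55 and SW948, DMSO or itraconazole, 4 each) was extracted on columns (RNAeasy), made into TruSeq libraries and sequenced as single-end reads of 50 bases. The authors aligned the reads to hg19 and deposited raw read counts per gene, 1 file per library, with no normalisation. TopHat, HTSeq and DESeq are named in the submitters' processing notes without versions, and the annotation release and the use of strand are not given in the sources used here. Each file also ends with 5 totals of reads outside genes, which were left out of library sizes and tests. Of these, reads in no feature made up 3.79% to 4.94% and reads with more than one alignment 22.0% to 27.9% of all listed. Depth was 8269406 to 11110814 gene counts per library. Without molecular identifiers, counts are of reads and not of independent molecules.

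Symbols came from GENCODE mapped to GRCh37, coordinates are 1-based on that build, and promoters came from RefSeq on GRCh38.p14. The quasi-likelihood test of edgeR 4.0.16 (R 4.3.3) was fitted to each line on its 8 libraries with TMM factors, filterByExpr and no covariate. The interaction was fitted on all 16 libraries and the comparison of lines on the 8 DMSO libraries. A gene was called where its p, adjusted over all genes tested by the Benjamini-Hochberg method, was under 0.05, and the SE was derived from the log2 change and the F statistic. The fits were also run on simulated counts in which few genes were changed, as many up as down. In these data most genes were called, so that run does not test the scaling. Printed CPM used TMM factors over the 16 libraries, and levels per length divided CPM by the read starts of the canonical transcript.

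All 10 members are named. From each further pathway list up to 4 genes are named, those with the largest change among called genes with no overlap of libraries and a mean of at least 5 CPM. ADAM17 and EGR1 fall outside this rule and were chosen after their values were seen. The likeness search took genes whose mean log2 CPM was 3 or more. The members, lists, motifs and alternatives were chosen with earlier results of these data known. Alternatives were plain library totals, size factors and the Wald test of DESeq2 1.42.0, no filter, a minimum of 10 counts in each library, a threshold of 0.01, dropping the mitochondrial genes and the 20 genes of highest count, a replicate block, AREG summed with AREGB, 1 fit on all 16 libraries, and leaving out each library. Labels give no batch, so no within-batch values could be had. Protein sequences were not used here.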

Additional observations from a re-analysis of the deposited data

Results flagged for a closer look

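The response to itraconazole differed between the lines for 8 of the 10 genes by the interaction test of edgeR, against 53.9% of the 13249 genes tested, given as the log2 change in SW948 minus that in HT55. The differences were -0.87 for EGFR, -0.85 for ERBB2, -0.34 for ERBB3, 2.04 for AREG, 0.84 for EREG, 0.72 for TGFA, -4.24 for BTC and -0.58 for ERRFI1. That of ERBB3 was lost with DESeq2 size factors (adjusted p = 0.0612) and the DESeq2 Wald test (adjusted p = 0.0539).

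In SW948 with itraconazole, the ERBB2 level of replicate 1 (146 CPM) stood off from the other libraries (115 to 120 CPM) by 0.83 of the group's range, just past Dixon's 95% limit for 4 samples. The same library stood off in the part of its reads that aligned more than once (25.3% against 26.2% in the others), by 0.91 of the range. In HT55 with DMSO, replicate 4 stood off in its share of reads in no feature (0.948 of the range) and of ambiguous reads (0.857 of the range). Of 60 groups of 4 values examined, 4 passed this limit, and chance gives about 1 in 20, or 3.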

How the results depend on the processing

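The counts of genes called and of members called stayed within 1.5 times their first value under every alternative run. Members called ranged over leaving out 1 library from 6 to 7 in HT55, 8 to 9 in SW948, 7 to 9 for the interaction and stayed at 10 between DMSO lines, and genes called ranged from 5560 to 7911, 9686 to 10294, 6762 to 7450 and 10656 to 10909. At least 10 counts in every library left 5 members called in HT55, 7 in SW948 and 6 for the interaction, since AREG and BTC in HT55 and BTC in SW948 were then not tested. On plain totals the sign turned for TGFA in HT55 (-0.084), for EGFR (-0.058), EREG (-0.27) and HBEGF (-0.33) in SW948, and for the interaction of HBEGF (-0.064), where all genes shifted by -0.165 in HT55, -0.329 in SW948 and -0.192 for the interaction. HBEGF in SW948 also turned with no filter (-0.016), with at least 10 counts in every library (-0.034) and over leaving out 1 library (-0.089 to 0.20). Leaving out 1 library gave -0.17 to 0.0047 for HBEGF and 0.0074 to 0.15 for TGFA in HT55, and -0.013 to 0.13 for EREG in SW948. The cause was not tested. Summing AREG with AREGB gave -1.04 in HT55 and changed no call.

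Same-numbered DMSO and itraconazole libraries had correlations of deviations of 0.008, 0.021, 0.145 and -0.045 in HT55 and 0.035, 0.002, 0.134 and 0.056 in SW948. Of these, 1 of 4 in HT55 and 2 of 4 in SW948 correlated best with their own number. Replicate 3 did so in both lines, where the highest value with another number was 0.031 in HT55 and 0.026 in SW948. The labels do not say whether equal numbers mark pairs, and so few values cannot decide it. With the replicate block, 6300, 9973, 7037 and 10827 genes were called in HT55, SW948, the interaction and between DMSO lines, with 6, 8, 8 and 10 members. ERBB3 in HT55 was the call lost, and HBEGF in SW948 was at -0.019. No member fell below the filter, so no exact permutation test of such a member was run. Depth limits AREG and BTC in HT55 and BTC in treated SW948, all under 32 counts a library.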
